A study of Mus musculus with 9 samples.

Results

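The genes described here encode surface proteins by which haematopoietic stem cells are told from the multipotent progenitors that descend from them: Slamf1, Procr, Esam, Eng, Tek, Cd9, Robo4, Cd48, Cd34 and Cd27. These 10 genes were listed by name and read from array probesets annotated with exactly 1 gene symbol, taking the brightest by mean over all arrays where a gene had several. A probeset of that kind was found for 9 of the 10, 1 for each, among 30142 genes measured. The probeset that lists Cd27, a receptor of the TNF receptor family carried by multipotent progenitors, also lists the microRNA gene Mir8113, so Cd27 was not analysed here.

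RNA came from LSK cells, the lineage-negative, Sca-1-positive, c-Kit-positive fraction of mouse bone marrow, which holds stem cells and multipotent progenitors together. The 4 knockout mice (KO) had the genotype Abi1(-/-);Tg (Mx1-cre(+)) and the 5 wild-type mice (WT) Abi1(fl/fl);Tg (Mx1-cre(-)), so only KO mice carried Cre and both groups carried floxed alleles to begin with. All mice received poly(I:C), an inducer of interferon, 3 times at 8 to 9 weeks of age to switch on the Mx1 promoter, and LSK cells were sorted from marrow of mice aged 12 to 14 weeks, with amplification from 5 ng of total RNA. Mx1-Cre is not limited to blood cells, and a PCR on the marrow served as the test of recombination.

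In mouse marrow, stem cells carry CD150, the product of Slamf1, and lack CD48, while most multipotent progenitors carry CD48 and gain CD34. The other genes of the set, apart from Cd27, are expressed in stem cells and also in other cells: EPCR (Procr), ESAM, endoglin (Eng), TIE2 (Tek) and ROBO4 are shared with endothelium, and the tetraspanin CD9 is shared with megakaryocytes and platelets. CD150 is also found on multipotent progenitors inclined to megakaryocytes and red cells, so Slamf1 in a mixed LSK sort does not mark stem cells alone. In a bulk sample, fewer cells of a type and less RNA per cell cannot be told apart.

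Promoters are shown for 4 members that the results below turn on: Slamf1, whose signal varied most between mice, Cd48, its neighbour on chromosome 1, Tek, which was low in the same array as Slamf1, and Robo4, which had the largest difference between the groups. Each window runs from 250 bases before to 50 bases after the RefSeq start, on the plus strand of GRCm38.p6 in all 4 cases, at chr1:171766882-171767181, chr1:171681742-171682041, chr4:94739039-94739338 and chr9:37401722-37402021. Capitals mark matches on either strand to the ETS letters CGGAAG or AGGAAG, the GATA letters AGATAA or TGATAA, and the RUNX letters TGTGGT or TGCGGT, and in these windows no match overlaps another.

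Slamf1: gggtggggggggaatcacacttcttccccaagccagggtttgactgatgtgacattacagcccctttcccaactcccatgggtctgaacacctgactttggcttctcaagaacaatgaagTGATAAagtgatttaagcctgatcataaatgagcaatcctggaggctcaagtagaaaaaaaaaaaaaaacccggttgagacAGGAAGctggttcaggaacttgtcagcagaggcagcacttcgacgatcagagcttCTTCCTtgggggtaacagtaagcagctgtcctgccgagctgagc
Cd48: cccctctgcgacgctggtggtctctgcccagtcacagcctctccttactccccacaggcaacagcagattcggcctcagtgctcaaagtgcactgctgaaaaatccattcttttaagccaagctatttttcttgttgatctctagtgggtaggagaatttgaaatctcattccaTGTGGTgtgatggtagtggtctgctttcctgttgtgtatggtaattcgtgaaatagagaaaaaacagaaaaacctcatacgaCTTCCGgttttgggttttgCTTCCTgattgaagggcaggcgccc
Tek: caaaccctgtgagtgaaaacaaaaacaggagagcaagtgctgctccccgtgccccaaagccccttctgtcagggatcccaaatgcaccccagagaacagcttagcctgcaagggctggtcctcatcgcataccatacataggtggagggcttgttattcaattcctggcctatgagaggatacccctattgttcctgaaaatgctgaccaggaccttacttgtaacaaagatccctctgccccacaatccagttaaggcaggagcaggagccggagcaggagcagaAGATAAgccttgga
Robo4: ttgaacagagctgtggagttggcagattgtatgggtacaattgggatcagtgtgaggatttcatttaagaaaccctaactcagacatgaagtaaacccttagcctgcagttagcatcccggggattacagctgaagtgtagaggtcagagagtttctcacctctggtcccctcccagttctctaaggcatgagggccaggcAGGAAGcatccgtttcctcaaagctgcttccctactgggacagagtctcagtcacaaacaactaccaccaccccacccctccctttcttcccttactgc

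The Slamf1 window held 2 ETS matches and 1 GATA match, the Cd48 window 2 ETS matches and 1 RUNX match, the Tek window 1 GATA match and the Robo4 window 1 ETS match. RefSeq promoters were at hand for 8 of the 9 measured members, and 7 of these 8 windows held an ETS match, 2 a GATA match and 1 a RUNX match. Over 32851 promoter windows of the same length, the shares were 46.5%, 18.6% and 22.4%. A match is a string of letters and was not tested as a binding site.

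Abi1 matched the labelled genotype in every array. It had log2 signals of 5.59 to 6.11 in KO and 11.49 to 11.65 in WT and fell by 5.73 on the log2 scale (limma adjusted p = 7.42e-08). Kit, the gene of the c-Kit gate, lay between 13.82 and 14.78 in the 9 arrays, but c-Kit is shared by progenitors outside the LSK gate, so Kit alone does not show that the cells are LSK, and Ly6a, the gene of Sca-1, was not analysed here. S100a8, a gene of mature neutrophils, which the lineage gate removes, had log2 signals of 12.58, 10.87, 6.52 and 7.48 in KO and 4.86 to 8.83 in WT. KO replicate 1 and WT replicate 5 stood apart from the other arrays: their median correlations with the rest were 0.973 and 0.979 across genes above background, against 0.987 to 0.992. The control probesets separated less well in these arrays: the probability that a random probeset marked pos outshines a random one marked neg was 0.775 and 0.756, against 0.803 to 0.827. The background level was 5.29 to 5.64 over the 9 arrays. Differences of the members are therefore also given without both arrays.

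None of the 9 surface genes differed between KO and WT past the threshold. In limma over all genes, 0 of 9 had an adjusted p under 0.05, where 1 of 30142 genes (0.00332%), Abi1, did so, and 0 of 9 had an unadjusted p under 0.05, where 5.01% of all genes did (3.82% higher in KO and 1.19% lower). The KO and WT values overlapped for all 9, and they did not overlap for 0.856% of all genes. Means were higher in KO for 4 members and lower for 5, with a median difference of -0.0020, while 63.9% of all genes had a higher mean in KO and their median difference was 0.034. Among genes above background, 54.5% had a higher mean in KO and the median difference was 0.0185. All 9 lay above background, as did 53.8% of all genes. Percentile 95 of the probesets marked neg was a stricter level, at 11.08. Of the members only Cd48 and Cd34 lay above it, as did 2872 of 30142 genes, and Cd9, with a mean of 11.04, lay just below. Without KO replicate 1 and WT replicate 5, 6 of the 9 had a higher mean in KO, where 50.8% of all genes did and their median difference was 0.0025.

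**Figure D1:**
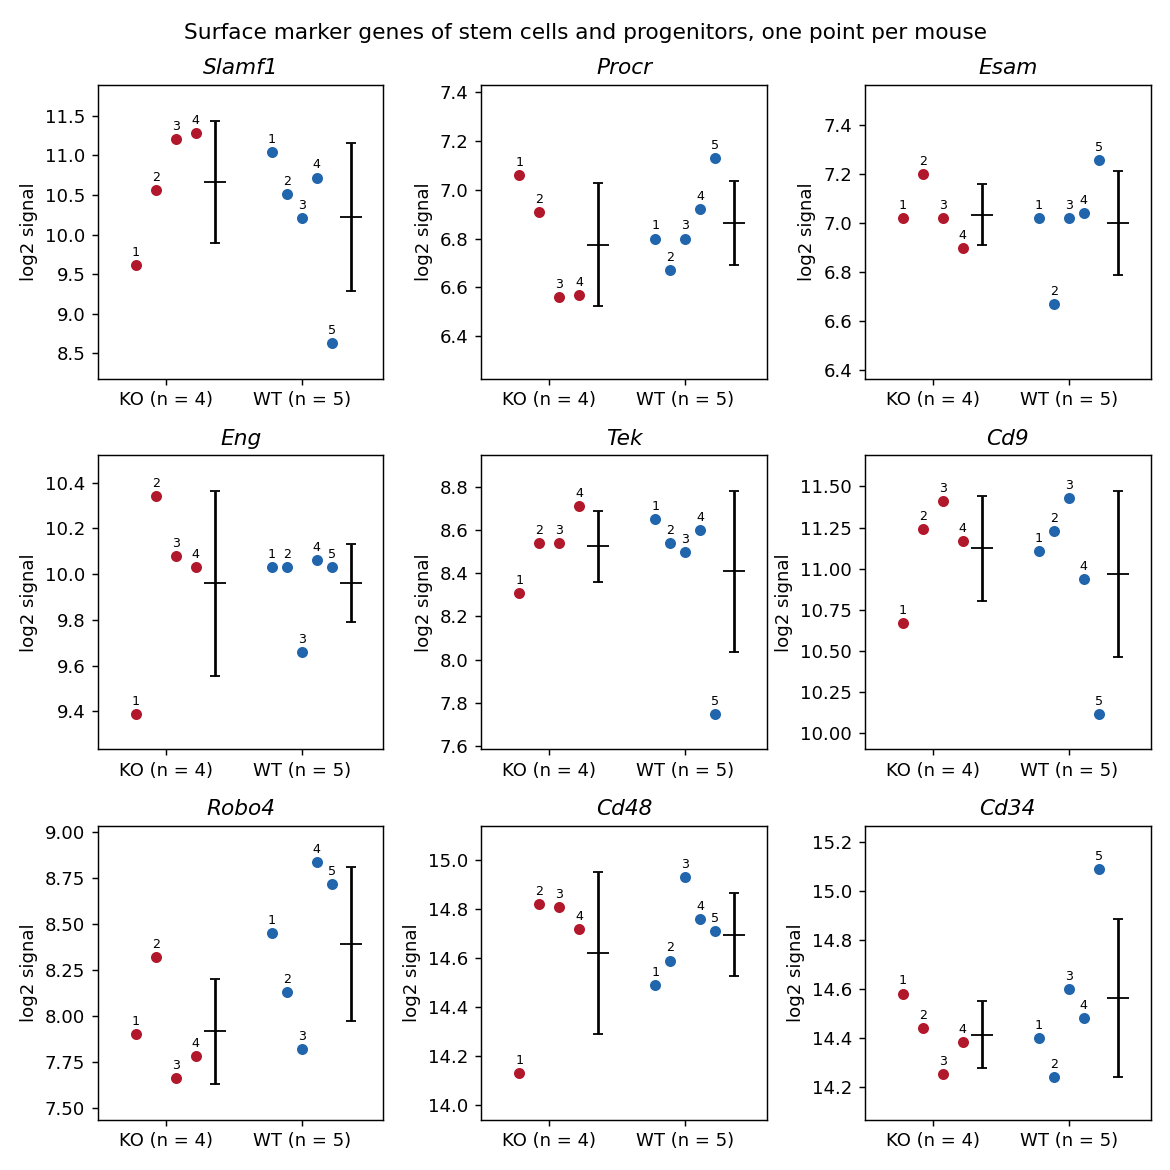
Log2 signal of the 9 measured surface genes (vertical axes, 1 scale per gene), with 1 point per mouse labelled by its replicate number, KO in red and WT in blue; black bars give the mean and SD of each group. The groups overlap in every panel, and WT replicate 5 is the lowest point for Slamf1 (8.63), Tek (7.75) and Cd9 (10.12).

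Slamf1, which encodes the SLAM receptor CD150, varied more between mice than any other member. Its log2 signals were 9.61, 10.56, 11.21 and 11.28 in KO replicates 1 to 4 and 11.04, 10.51, 10.21, 10.72 and 8.63 in WT replicates 1 to 5. KO replicates 3 and 4 were the highest of the 9 arrays and WT replicate 5 the lowest, and the range of 2.65 exceeded that of 98.4% of genes above background. The difference, KO minus WT, was 0.44 (SE 0.54, interval at the 95% level from -0.78 to 1.67, limma adjusted p = 0.807, exact permutation p = 0.492). It was 0.045 without WT replicate 5, 0.79 without KO replicate 1 and 0.40 without both.

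Cd48 encodes the SLAM family protein that progenitors gain as they leave the stem cell state. The log2 signals were 14.13, 14.82, 14.81 and 14.72 in KO and 14.49, 14.59, 14.93, 14.76 and 14.71 in WT. Apart from KO replicate 1, which was the lowest, the arrays lay within 14.49 to 14.93. The difference was -0.076 (SE 0.16, interval from -0.43 to 0.28, limma adjusted p = 0.878), 0.087 without KO replicate 1 and 0.091 without both KO replicate 1 and WT replicate 5. KO replicate 1 was also the lowest array for Kit, at 13.82 against 14.53 to 14.58 in the other KO arrays.

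Cd34, the gene of a sialomucin that is low on adult mouse stem cells and higher on progenitors, was highest in WT replicate 5. Its log2 signals were 14.58, 14.44, 14.25 and 14.38 in KO and 14.40, 14.24, 14.60, 14.48 and 15.09 in WT. The other 8 arrays lay between 14.24 and 14.60, with KO and WT interleaved. The difference was -0.15 (SE 0.16, interval from -0.52 to 0.22, limma adjusted p = 0.795), -0.018 without WT replicate 5 and -0.073 without both arrays.

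The balance of the SLAM genes and Cd34 was also read within each array, where a shift of equal size in all genes cancels. A shift that differs between dim and bright genes does not cancel. The log2 signal of Slamf1 minus that of Cd48, relative to its mean over the 9 arrays, was -0.28, -0.017, 0.64 and 0.80 in KO and 0.79, 0.16, -0.48, 0.20 and -1.84 in WT. WT replicate 5 alone lay far below the rest, and KO replicates 3 and 4 and WT replicate 1 were the highest. This quantity averaged 0.29 ± 0.52 in the KO arrays (SD, n = 4) and -0.23 ± 1.004 in the WT arrays (SD, n = 5), a difference of 0.52, and 0.31 without KO replicate 1 and WT replicate 5. For Slamf1 minus Cd34 the difference was 0.59, and 0.47 without these arrays. Procr minus Cd48 differed by -0.013, and by -0.21 without them, and it was highest in KO replicate 1, at 0.77. These balances are descriptions of the arrays and were not tested.

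Robo4, which encodes a roundabout receptor of endothelium and stem cells, had the largest difference among the members and the smallest p. Its log2 signals were 7.90, 8.32, 7.66 and 7.78 in KO and 8.45, 8.13, 7.82, 8.84 and 8.72 in WT. KO replicates 3 and 4 were the lowest of the 9, WT replicates 4 and 5 the highest, and WT replicates 2 and 3 lay within the KO range. The difference was -0.48 (SE 0.23, interval from -0.998 to 0.044), which did not pass the test (limma unadjusted p = 0.0682, adjusted p = 0.786, exact permutation p = 0.111). It lay between -0.62 and -0.37 when single arrays were left out and was -0.39 without KO replicate 1 and WT replicate 5.

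Procr and Esam lay nearer to the background level of 5.29 to 5.64 and varied less between mice than the other members. Procr, the gene of the protein C receptor EPCR, had log2 signals of 7.06, 6.91, 6.56 and 6.57 in KO and 6.80, 6.67, 6.80, 6.92 and 7.13 in WT. KO replicates 3 and 4, the highest arrays for Slamf1, were the lowest for Procr, and WT replicate 5 was the highest. The difference was -0.089 (SE 0.13, interval from -0.39 to 0.21, limma adjusted p = 0.835). It was -0.18 without KO replicate 1, -0.023 without WT replicate 5 and -0.12 without both, and -0.017 without KO replicate 3 was the value nearest to 0. Esam, the gene of an endothelial adhesion molecule, had log2 signals of 7.02, 7.20, 7.02 and 6.90 in KO and 7.02, 6.67, 7.02, 7.04 and 7.26 in WT. The value 7.02 occurred in 4 arrays of both groups, and such equal values make the measured spread small. Its difference was 0.033 (SE 0.11, interval from -0.23 to 0.29, limma adjusted p = 0.932), -0.024 with each array centred on its median and 0.10 without KO replicate 1 and WT replicate 5.

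Eng and Tek encode receptors of vascular growth factors, endoglin for TGF-beta family ligands and TIE2 for angiopoietins. Eng had log2 signals of 9.39, 10.34, 10.08 and 10.03 in KO and 10.03, 10.03, 9.66, 10.06 and 10.03 in WT. KO replicate 1 was the lowest and KO replicate 2 the highest, so both ends lay in KO, and 4 arrays shared the value 10.03. The difference was -0.0020 (SE 0.18, interval from -0.42 to 0.41, limma adjusted p = 1), 0.19 without KO replicate 1, 0.205 without WT replicate 5 as well, and 0.039 with quantile normalization. Tek had log2 signals of 8.31, 8.54, 8.54 and 8.71 in KO and 8.65, 8.54, 8.50, 8.60 and 7.75 in WT. WT replicate 5 lay below all others, and 3 arrays shared 8.54. The difference was 0.12 (SE 0.19, interval from -0.31 to 0.54, limma adjusted p = 0.846), -0.048 without WT replicate 5 and 0.024 without KO replicate 1 as well.

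Cd9 encodes a tetraspanin that organises other membrane proteins. Its log2 signals were 10.67, 11.24, 11.41 and 11.17 in KO and 11.11, 11.23, 11.43, 10.94 and 10.12 in WT. WT replicate 5 and KO replicate 1 were the lowest arrays, and the others lay between 10.94 and 11.43. The difference was 0.16 (SE 0.27, interval from -0.46 to 0.77, limma adjusted p = 0.854), -0.055 without WT replicate 5 and 0.096 without KO replicate 1 as well.

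**Figure D2:**
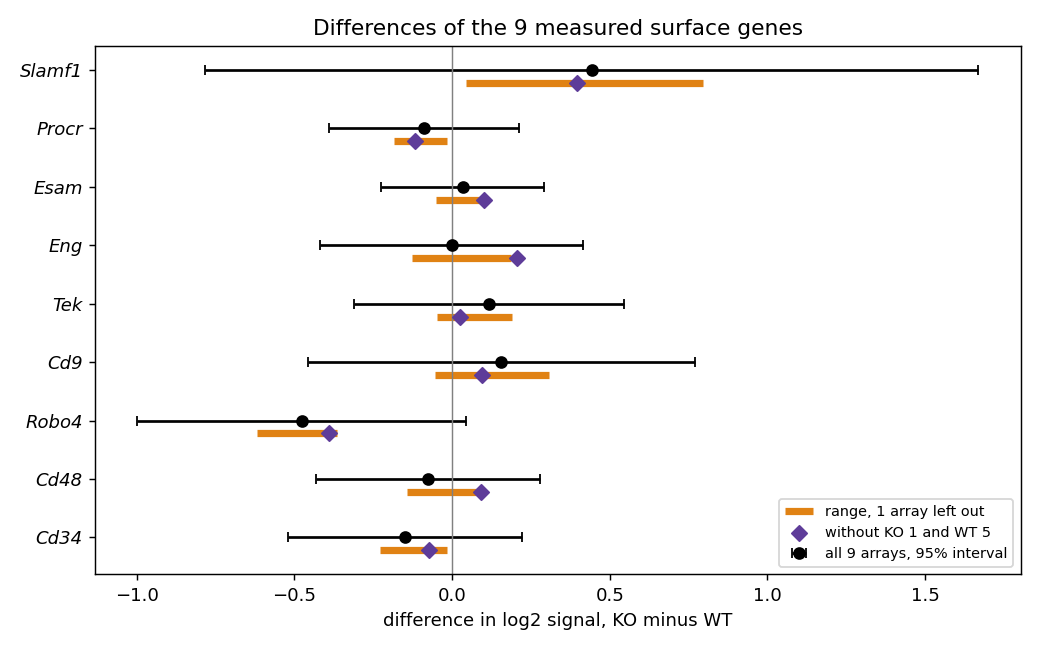
Difference in log2 signal, KO minus WT, of the 9 measured surface genes (horizontal axis), with the limma interval at the 95% level in black, the range over fits that leave out 1 array in orange and the value without KO replicate 1 and WT replicate 5 as a purple diamond. Every interval holds 0, and the interval of Slamf1 is the widest, from -0.78 to 1.67.

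The width of the intervals sets what could be seen. For Slamf1 the interval still holds a rise of 1.67 or a fall of 0.78 on the log2 scale, while for Esam it ends at -0.23 and 0.29. The Esam interval rests in part on the value 7.02 shared by 4 arrays, which makes the measured spread small. A difference that misses the threshold does not show that the groups are alike.

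WT replicate 5 set the surface genes apart in opposing directions. It was the lowest of the 9 arrays for Slamf1, Tek and Cd9 and the highest for Procr, Esam and Cd34, and at 8.72 it was next to the highest for Robo4. Against the mean of the other WT arrays, Slamf1 differed by -1.99, Cd9 by -1.06 and Tek by -0.82, while Cd34 differed by 0.66, Robo4 by 0.41, Procr by 0.33 and Esam by 0.32. Cd48 and Eng in this array lay within the range of the other WT arrays.

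Genes outside the set, named here after their values were seen, separated in the same array. Hlf, a transcription factor gene of stem cells, had a log2 signal of 11.62 in WT replicate 5 and 9.80 to 10.96 in the other 8 arrays. Flt3, the cytokine receptor gene of lymphoid-primed progenitors, was 12.78 against 10.81 to 12.15. Fgd5, Mecom and Meis1, further stem cell genes, were also highest there, at 7.53, 7.92 and 13.52. Itga2b, the gene of the megakaryocyte integrin CD41, was 10.04 there and 10.75 to 11.89 in the others, and Car1, an erythroid carbonic anhydrase gene, was 6.38 and 15.40 to 16.99. Other genes of the stem cell lists were lowest in this array: Vwf, which the megakaryocyte list also holds, at 5.83 against 7.24 to 8.19, Ctnnal1 at 6.25 against 6.66 to 6.67, Itgb3 at 6.39 against 7.27 to 8.01 and Itga6 at 9.77 against 10.10 to 10.27. As whole lists, genes of stem cells and of multipotent and lymphoid-primed progenitors did not stand apart there: the mean deviation in WT replicate 5 was -0.031 for stem cell genes not at the surface, -0.090 for further surface genes of stem cells and 0.15 for multipotent and lymphoid-primed progenitor genes, each within the range of the other arrays. Lists of the megakaryocyte and erythroid lineages did stand apart. Over the 7 measured megakaryocyte and platelet genes the mean deviation from the average of all arrays was -1.78 in WT replicate 5 and -0.17 to 0.55 in the others. Over the 8 measured erythroid genes it was -2.66 and -0.43 to 0.85. The part of these lineages in the signals of Slamf1, Tek and Cd9 was not tested.

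KO replicates 3 and 4 were alike in the reverse sense for several of these genes. Slamf1 was highest there, and Robo4, Procr, Hlf (10.03 and 9.80) and Flt3 (10.81 and 10.94) were lowest. Tie1, a gene not named above, was also lowest there (9.56 and 9.46), but WT replicate 5 was not its highest array. Mecom was lowest in KO replicate 4 (7.08), and Fgd5 had its lowest value, 6.43, in both KO replicate 4 and WT replicate 3. Other genes named above did not follow: Cd34 and Esam were lowest in WT replicate 2 and Meis1 in WT replicate 3. Cd9 was highest in WT replicate 3, Itga2b in KO replicate 2 and Car1 in WT replicate 2. In KO replicate 1, Eng, Cd48 and Kit were the lowest of the 9 arrays. Genes of mature neutrophils were high in KO replicates 1 and 2, with mean deviations of 1.72 and 1.52 over 10 measured genes, against -0.96 to 0.22 in the other 7 arrays. Their part in the low Cd48 and Eng of KO replicate 1 was not tested, and KO replicate 2 had the highest Eng.

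**Figure D3:**
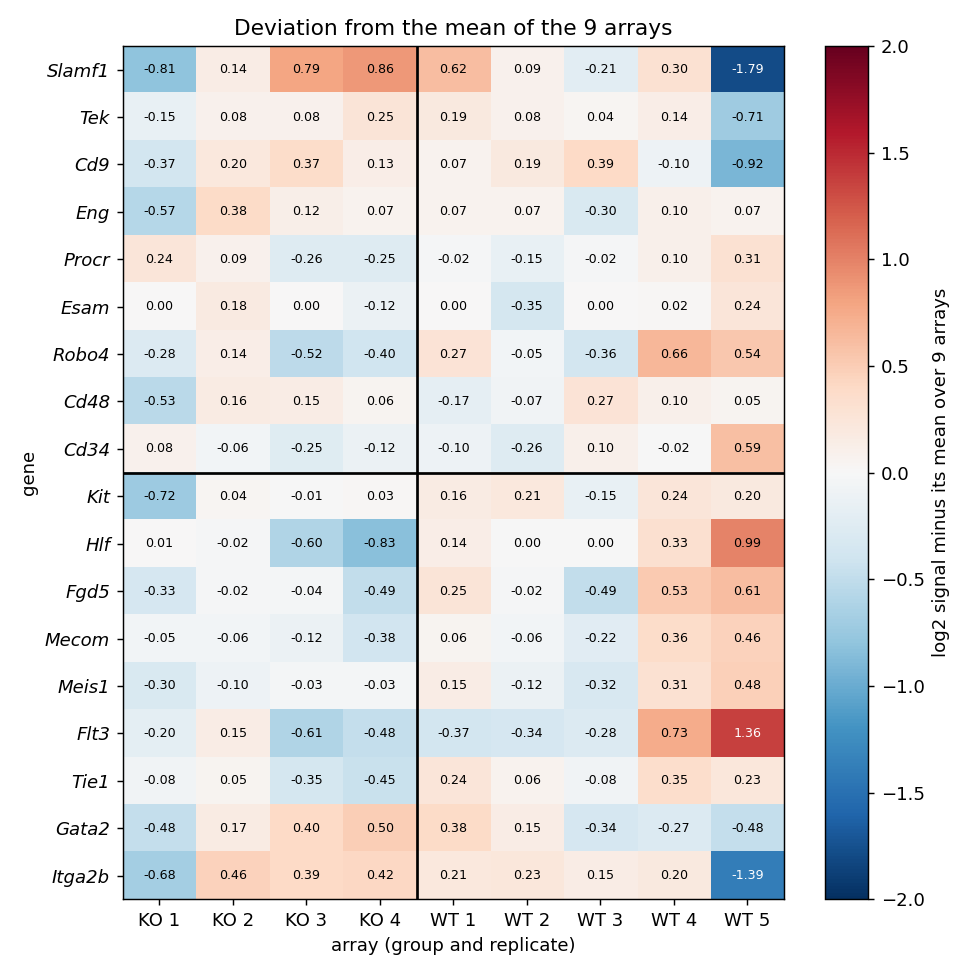
Deviation of each gene's log2 signal from its mean over the 9 arrays (colour and printed value), with arrays in columns and genes in rows; the upper block holds the 9 surface genes and the lower block Kit and 8 genes of stem cells, progenitors and megakaryocytes. In WT replicate 5 Slamf1 is at -1.79 and Itga2b at -1.39, while Hlf is at 0.99 and Flt3 at 1.36.

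Several members are shared with endothelium, so its markers were read beside them. Of 11 measured endothelial genes, 10 lay below background, among them Cdh5, Kdr, Cldn5 and Plvap. The exception was Tie1, a receptor related to TIE2 that blood progenitors also express. The mean deviation of this list ran from -0.045 to 0.047 in KO and from -0.098 to 0.044 in WT. Of 9 stromal genes, 3 lay above background, with Pdgfrb the brightest at 9.52 to 10.75, and Cxcl12 and Lepr below it. Mean deviations of the stromal list ran from -0.067 to 0.25 in KO and from -0.13 to 0.17 in WT.

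Genes of other blood cells could add to the signal of LSK sorts. Their counts are read against all genes, of which 63.9% had a higher mean in KO (50.8% without KO replicate 1 and WT replicate 5) and 3.82% were higher at an unadjusted p under 0.05. Among genes above background the share with a higher mean in KO was 54.5%. Over 8 granulocyte-monocyte progenitor genes the mean deviation ran from 0.013 to 0.61 in KO and from -0.63 to 0.23 in WT, with 7 higher means and a median difference of 0.55. The means of all 8 measured mast cell and basophil genes were higher in KO, and their median difference was 0.66. All 7 megakaryocyte genes and 7 of 8 erythroid genes also had higher means, but without KO replicate 1 and WT replicate 5 these counts were 5 and 2. B cell genes had higher means in 8 of 9 cases and T and NK cell genes in 5 of 8. None of these genes passed the threshold over all genes in limma. At an unadjusted p under 0.05 there were 4 granulocyte-monocyte progenitor genes, led by Fcgr3 (difference 0.63) and Cebpe (0.53), 3 mast cell genes, led by Cma1 (0.82) and Tpsb2 (0.82), and 5 B cell genes, led by Igll1 (0.67, below background) and Ebf1 (0.48). Single genes with such a p were Gp9 of megakaryocytes (0.43, and 0.25 without KO replicate 1 and WT replicate 5) and Nkg7 of the T and NK cell list (0.55). Nkg7 lay at 13.74 to 14.58. Cd3g (5.50 to 5.94) and Klrb1c (5.46 to 6.44) of that list lay above background but near its level, and Cd3e, Cd3d, Cd8a, Cd4 and Ncr1 lay below it. Among 10 monocyte genes with 6 higher means, Ly6c2 had such a p (1.51, and 1.14 without KO replicate 1 and WT replicate 5). Of the 10 neutrophil genes, all with higher means and 7 above background, Mmp8 (0.27, below background) and Cxcr2 (0.25) had one. Their part in the members' signals was not tested.

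Related genes were then counted in lists, to be read against the same shares of all genes. Among 19 measured further surface genes of stem cells, 10 had higher and 9 lower means in KO, the median difference was 0.023, and 0 passed the threshold in limma, with 2 at an unadjusted p under 0.05. Tie1, the lower of these, had log2 signals of 9.83, 9.96, 9.56 and 9.46 in KO and 10.15, 9.97, 9.83, 10.26 and 10.14 in WT. KO replicates 1 and 2 lay within the WT range and KO replicates 3 and 4 below it, and the difference was -0.37 (SE 0.12, limma unadjusted p = 0.0175, adjusted p = 0.786) and -0.39 without KO replicate 1 and WT replicate 5. The tetraspanin gene Cd82 differed by 0.15 (SE 0.064, unadjusted p = 0.0441 and adjusted p = 0.786 in limma). In direction and in its low KO arrays Tie1 followed Robo4.

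Stem cell genes that do not act at the surface had 7 higher and 7 lower means among 14 measured, with a median difference of -0.010, and 0 passed the threshold in limma. Hlf was the 1 gene with an unadjusted p under 0.05. Its log2 signals were 10.64, 10.61, 10.03 and 9.80 in KO and 10.77, 10.63, 10.63, 10.96 and 11.62 in WT. KO replicate 1 alone reached into the WT range, just above its lower end, and the difference was -0.65 (SE 0.26, limma unadjusted p = 0.0334, adjusted p = 0.786) and -0.60 without KO replicate 1 and WT replicate 5. Without these arrays, an alternative added after the data were seen, 12 of the 14 had lower means in KO and 2 higher, where 45.8% of all genes had lower means, and the median difference was -0.095. Fgd5 differed by -0.25 and Mecom by -0.22 in those 7 arrays, and Gata2, which also serves megakaryocyte and mast cell development, by 0.38.

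Genes of multipotent and lymphoid-primed progenitors had 11 higher and 6 lower means among 17 measured, with a median difference of 0.036, and 0 passed the threshold in limma. Il7r, the interleukin 7 receptor gene of lymphoid progenitors, was the 1 gene with an unadjusted p under 0.05. Its log2 signals were 6.13, 5.79, 5.60 and 5.80 in KO and 5.27, 5.39, 5.61, 5.64 and 5.52 in WT. These lay near the background level of 5.29 to 5.64, which was highest in KO replicate 1, the highest array for Il7r. KO replicate 3 lay inside the WT range, and the difference was 0.34 (SE 0.12, limma unadjusted p = 0.0176, adjusted p = 0.786) and 0.25 without KO replicate 1 and WT replicate 5. Flt3 differed by -0.51 and by -0.25 without KO replicate 1 and WT replicate 5.

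The SLAM family list held 10 measured genes, with 7 higher and 3 lower means in KO and a median difference of 0.073. It includes Slamf1 and Cd48, and also the adaptor genes Sh2d1b1, counted among the higher, and Sh2d1a, counted among the lower. In limma 0 of the 10 passed the threshold and 0 had an unadjusted p under 0.05. Ly9, a SLAM family receptor of progenitors and lymphocytes, had log2 signals of 9.02 to 9.75 in KO and 9.13 to 9.74 in WT. Cd84 lay at 10.95 to 11.22 in KO and 10.85 to 11.08 in WT, and both thus overlapped. Sh2d1a, the gene of the adaptor that SLAM receptors signal through in T cells, lay below background.

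Tetraspanin genes, Cd9 among them, had 6 higher and 6 lower means in 12 measured, with a median difference of 0.057, and 0 passed the threshold in limma, with 1, Cd82, at an unadjusted p under 0.05. Cd63 lay at 14.36 in WT replicate 5, below the 14.75 to 15.06 of the other 8 arrays, and Cd81 at 12.26 against 12.52 to 12.89. Cd37 (11.70), Cd53 (11.29) and Tspan14 (13.22) were the highest there, so the array where Cd9 was lowest held tetraspanins at both ends, all named after their values were seen. The mean deviation of the list was -0.15 in WT replicate 5, -0.21 in KO replicate 1 and -0.0080 to 0.13 in the others.

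Ligands, receptors and relatives of the members were measured by 29 genes, of which 16 lay above background, with 19 higher means, 9 lower, 1 equal and a median difference of 0.023. In limma 0 passed the threshold and 3 had an unadjusted p under 0.05. Robo3, a roundabout gene that lies beside Robo4, had log2 signals of 6.94, 7.62, 6.95 and 7.05 in KO and 6.87, 6.54, 6.78, 6.87 and 5.88 in WT. Its KO arrays all lay above its WT arrays, as the arrays of 0.856% of all genes do in either direction, and the difference was 0.55 (SE 0.23, limma unadjusted p = 0.0452, adjusted p = 0.786) and 0.44 without KO replicate 1 and WT replicate 5, opposite in sign to that of Robo4. F2r, the thrombin receptor gene, which acts with EPCR in protein C signalling, had log2 signals of 8.89, 9.62, 9.32 and 9.19 in KO and 9.15, 8.61, 8.48, 8.58 and 7.12 in WT. WT replicate 1 reached into the KO range and WT replicate 5 was the lowest, and the difference was 0.87 (SE 0.37, limma unadjusted p = 0.0465, adjusted p = 0.786) and 0.67 without KO replicate 1 and WT replicate 5. The third was Tie1, described above.

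Among the ligands, Angpt1, which encodes the angiopoietin that activates TIE2, lay at 13.14 to 13.58 in the 9 arrays, and Angpt2 lay below background. The Slit genes, which encode the ligands of roundabout receptors, lay below background, as did Robo1, Robo2 and Cd70, the gene of the CD27 ligand. The receptors of the TGF-beta family were mixed: Tgfbr1, Tgfbr2, Tgfbr3 and Bmpr2 lay above background and Acvrl1 below it. Tgfbr3, which encodes betaglycan, a relative of endoglin, was 9.52 in WT replicate 5 and 10.18 in KO replicate 1, and 10.69 to 11.34 in the other 7 arrays. These low arrays were also those of Slamf1.

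**Figure D4:**
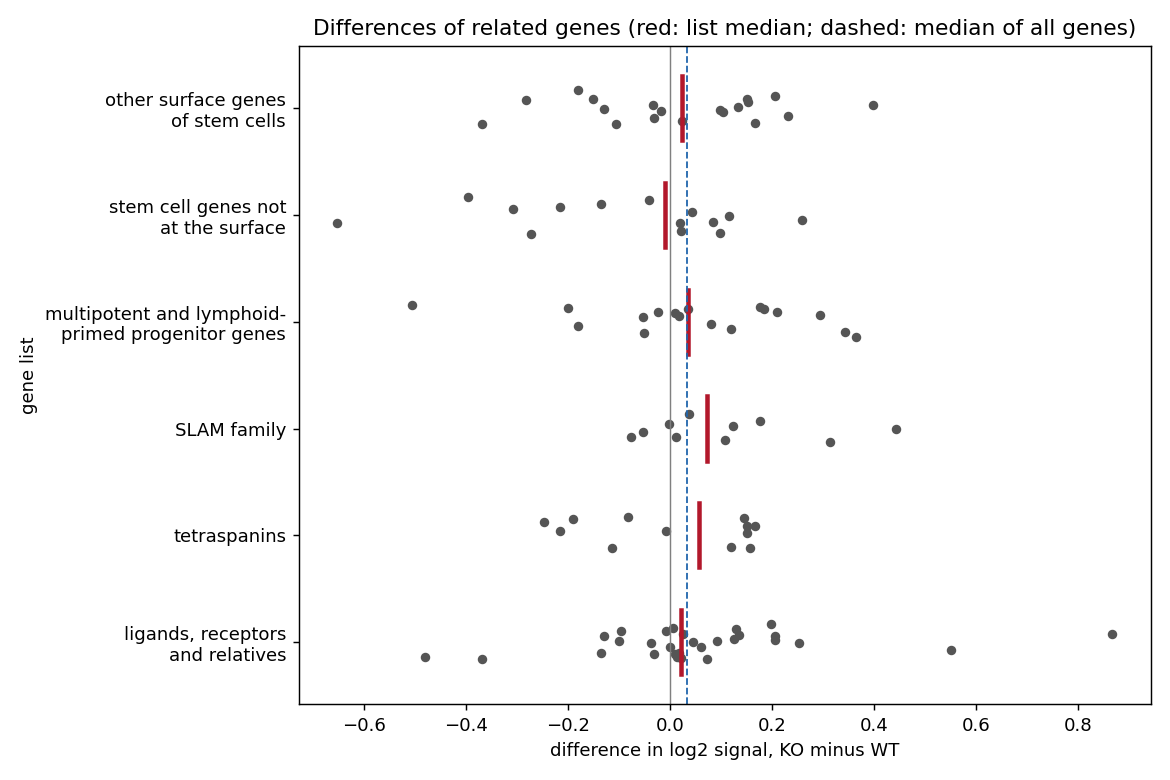
Difference in log2 signal, KO minus WT, of each gene in the 6 lists of related genes (1 point per gene, scattered vertically within a list to keep points apart), with the median of each list in red and the median of all 30142 genes (0.034) as a dashed line. List medians lie between -0.010 and 0.073, and F2r, at 0.87, is the point farthest to the right.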

How the data were processed

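The series holds 9 whole-transcript arrays, 1 per mouse, in 1 deposited table of 72688 probesets. Values were used as log2 signals normalized by the authors, a scale read from their range (1.84 to 19.45). Partek 6.6 stands in the submitters' processing notes, with normalization and genome build not given in the sources used here. Symbols came from the platform annotation, 827 updated to RefSeq names. Background was percentile 95 of 1717 olfactory and vomeronasal receptor genes. KO and WT were fitted over 30142 genes with limma 3.58.1 in R 4.3.3 (lmFit, eBayes without trend, Benjamini-Hochberg, threshold 0.05), tested on simulated data, and single genes by exact two-sided permutation over 126 splits. Members and lists were chosen with earlier results of these data known. Named were all members, Abi1, Kit, per list up to 2 genes per direction with the smallest unadjusted p under 0.05 (else the highest of a cell type list), and 2 genes most like each member; further genes are examples chosen after their values were seen. Alternatives were quantile normalization, median centring, a trended fit, array weights, dim genes left out, averaged probesets, arrays left out, a replicate block and another background level.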

Additional observations from a re-analysis of the deposited data

Results flagged for a closer look

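An array far from the others of its group was found in 5 of 22 groups of values (9 surface genes, Abi1 and Kit, each in KO and in WT). This was judged by the gap to the nearest array as a share of the group's range. Chance alone flags about 1 in 20 groups where groups are independent. These groups share the same 9 arrays, and all flags fell in KO replicate 1, WT replicate 3 or WT replicate 5. The count therefore cannot be read against that rate. Tek in WT replicate 5 was 7.75, against 8.50 to 8.65 in the other WT arrays. Cd48 in KO replicate 1 was 14.13, while the remaining KO arrays lay at 14.72 to 14.82, and Kit in the same array was 13.82, while they lay at 14.53 to 14.58. In WT replicate 3 Eng was 9.66, against 10.03 to 10.06, and Kit was 14.39, against 14.70 to 14.78. In both genes the other WT arrays lay close together, and for Eng 3 of them shared the value 10.03.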

How the results depend on the processing

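No member passed an adjusted p of 0.05 in limma under any of the 17 alternatives, and Slamf1, Procr, Robo4 and Cd34 kept their direction in all of them. A trended fit, dim genes left out and averaged probesets leave each member's difference unchanged, so they could not turn a sign. The replicate block repeats the differences found without WT replicate 5. The sign of the other members turned as follows: with quantile normalization Eng was 0.039, with each array centred on its median Esam was -0.024, and with array weights Eng was 0.12 and Cd48 0.10. Without both KO replicate 1 and WT replicate 5, Eng was 0.205 and Cd48 0.091. The replicate block over numbers 1 to 4, which leaves out WT replicate 5, gave 0.015 for Eng, -0.048 for Tek and -0.055 for Cd9. It changed no call. Deviations of same-numbered arrays correlated at -0.18 to 0.27. For number 2 this value, 0.15, exceeded those with other numbers (up to 0.070). For number 4 it matched the highest of them, and for numbers 1 and 3 it lay within their range. The labels name no pairing, and so few arrays cannot show whether the mice were paired. Leaving out single arrays gave -0.050 to 0.098 for Esam, -0.13 to 0.19 for Eng, -0.048 to 0.19 for Tek, -0.055 to 0.31 for Cd9 and -0.14 to 0.087 for Cd48. Robo4 had an unadjusted p under 0.05 in 4 of the 17 alternatives, the smallest 0.0145 without WT replicate 3, with adjusted p-values of 0.665 to 0.964. With array weights 2 genes were called over all genes, Abi1 and Igll1. Above percentile 95 of the probesets marked neg lay 2 members in place of 9, and 2872 of 30142 genes in place of 16211. The causes were not tested. With 9 arrays precision is limited, and genes above background had a median standard error of 0.12.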

Other observations

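Patterns over the 9 arrays were compared between each member and 10927 named genes above background, as a description in which shared arrays and the arrays that stand apart enter every value. The most similar genes by Pearson correlation were Mical3 and Tgfbr3 for Slamf1 (0.963 and 0.958), and these values were 0.777 and 0.710 over 7 arrays without KO replicate 1 and WT replicate 5. For Robo4 they were Pik3c2b and Arap1 (0.958 and 0.955, and 0.976 and 0.967 over 7 arrays), and for Cd34 Plekhg3 and Nipbl (0.986 and 0.976). For Tek, Rnf6 and Zswim1 stood at 0.988 and 0.976, and at 0.752 and 0.769 over 7 arrays. The others were Vsig2 and Cd247 for Procr, Bcr and Upp1 for Esam, Nsmf and Napa for Eng, Golt1b and Mrpl46 for Cd9, and Dhrs7 and Mphosph9 for Cd48.

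Some members lie near each other in the RefSeq order of genes. Slamf1 and Cd48 have 1 annotated coding entry between them, Tma7-ps, yet Slamf1 had its lowest value in WT replicate 5, where Cd48 lay within the range of the other WT arrays. Esam and Robo4 are separated by Robo3 and Msantd2 on chromosome 9, and the KO minus WT differences of Robo3 (0.55) and Robo4 (-0.48) had opposite signs, though neither passed the threshold.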
